A study of Mus musculus with 8 samples.

Results

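Aen and Bbc3 are 2 mouse genes whose mRNAs the study put forward as targets of Exosc10, and their levels were compared between pull-downs of Exosc10 and mock pull-downs. They were found by their Ensembl identifiers, ENSMUSG00000030609 for Aen and ENSMUSG00000002083 for Bbc3, among 54838 genes counted. Both of the 2 passed the filter on low counts, as did 16716 genes in all. RNA immunoprecipitation sequencing (RIP-seq) reads the RNA that comes down with a protein when an antibody takes it from a cell lysate. Cells dissociated from the cortex of C57BL/6 mouse embryos at embryonic day 12.5 were lysed, and a rabbit antibody against Exosc10 (4 libraries) or normal rabbit IgG (4 libraries) was used. No genotype or treatment apart from the antibody is given in the labels, which also do not say how many embryos or litters stand behind a library. P-values therefore reflect how far these libraries differ among themselves, and that spread may be technical.

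Exosc10, known as Rrp6 in yeast, is a 3′ to 5′ exoribonuclease of the nuclear RNA exosome, the complex that trims and degrades many classes of RNA. The transcription factor p53, when it is stabilised after damage or stress, induces genes for cell cycle arrest and for apoptosis, and progenitors of the early cortex are known to be sensitive to its activation. Aen encodes the apoptosis-enhancing nuclease, a p53-induced exonuclease that takes part in the breakdown of DNA in dying cells. Bbc3 encodes Puma, a BH3-only protein of the Bcl2 family. Puma binds the survival members of that family, which lets Bax and Bak open the outer mitochondrial membrane. The proposal of these mRNAs as targets may have rested in part on these pull-downs, so their direction here is not independent evidence for it.

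Both genes lie on chromosome 7 of the mouse, Bbc3 at chr7:16308398-16318334 and Aen at chr7:78895927-78911209 (GRCm38.p6, the build that mm10 also names), 62.6 Mb apart. Both are annotated as protein coding. Both are known p53-induced genes, so short stretches near their start sites that resemble the p53 response element are shown first. RefSeq windows of 300 bases around annotated start sites were searched for this element, a pair of consensus decamers side by side, with the fixed C and G of each decamer required and at most 3 mismatches over the 20 bases. The element reads the same on both strands. The best match of each gene is in capitals, on the plus strand, with flanking bases in lower case.
Aen, chr7:78895932-78895961: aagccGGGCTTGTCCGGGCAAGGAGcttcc
Bbc3, chr7:16309481-16309510: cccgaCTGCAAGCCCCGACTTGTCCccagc
Each match differs from the consensus at 3 of 20 bases. The Aen match begins 10 bases after the first of its 2 annotated start sites and 121 bases before the second. The Bbc3 match begins 97 bases before the first of its 3 windows' start sites, and the other two windows held no match at this limit. It lies within the annotated span of Bbc3, whose first base, 16308398, lay in no searched window. Such a match occurred in 453 of 32851 windows (1.38%) and in 441 of 27025 genes (1.63%). A match of letters is a description of the DNA, and the pull-downs measured RNA and not p53 binding.

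The libraries held 20967743 to 34506709 counted reads. EdgeR's quasi-likelihood test, with Benjamini-Hochberg adjustment over the 16716 genes tested and a threshold of 0.05, called 1324 genes (7.92%) higher with Exosc10 and 2297 (13.7%) in either direction. With scaling by the upper quartile, 1025 of 2394 calls were higher with Exosc10, a smaller share than 1324 of 2297. Leaving out a single library moved the calls to between 588 (without IgG library 3) and 2218 (without IgG library 1) higher genes, and to between 880 (without Exosc10 library 4) and 4046 (without IgG library 1) in either direction. None of the 8 samples was of input RNA. A value is thus a share of one pull-down set against the other, and gives no enrichment over the RNA of the cells. In lysates of many cells, fewer cells that hold a transcript and less of it per cell cannot be told apart. The identifiers could not be paired with gene symbols apart from those of Aen and Bbc3, so the tissue label was not checked against marker genes, and the level of Exosc10 mRNA itself is not given.

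Aen mRNA made up more of the reads after pull-down with the Exosc10 antibody than after the mock. In the Exosc10 libraries 1 to 4 it had 794, 1278, 1203 and 1353 reads, which scaled to 36.8, 42.3, 38.9 and 39.6 CPM (the count relative to a library total that had been scaled by edgeR's TMM method). In the IgG libraries 1 to 4 it had 651, 721, 571 and 799 reads, or 29.2, 27.9, 23.6 and 26.3 CPM. Every Exosc10 library lay above every IgG library, in 16 of 16 pairings of one with the other, and 10.6% of all tested genes were separated in this direction. Exosc10 libraries averaged 39.4 ± 2.29 CPM and IgG libraries 26.7 ± 2.42 CPM (SD, n = 4 each). The log2 fold change was 0.56 ± 0.16 (SE), a 1.47-fold difference with a 95% confidence interval of 1.17 to 1.86, and it passed edgeR's test at an adjusted p of 0.0310. With the 70 ways to assign the libraries, an exact permutation test (two-sided) gave p = 0.0286, the smallest that 4 against 4 can give.

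Bbc3 had a higher mean in the Exosc10 pull-down too. The difference did not pass edgeR's test, in which library numbers were not used as pairs. In the Exosc10 libraries 1 to 4 it had 320, 378, 311 and 445 reads, or 14.8, 12.5, 10.1 and 13.0 CPM. In the IgG libraries 1 to 4 it had 240, 250, 112 and 214 reads, or 10.8, 9.66, 4.62 and 7.03 CPM. The groups overlapped at one point, where Exosc10 library 3 lay below IgG library 1, and Exosc10 was higher in 15 of 16 pairings. The averages were 12.6 ± 1.97 CPM for Exosc10 and 8.02 ± 2.75 CPM for IgG (SD, n = 4 each). The log2 fold change was 0.65 ± 0.26 (SE), a 1.57-fold difference with a 95% confidence interval of 1.08 to 2.29. The edgeR p was 0.0226 before adjustment and 0.102 after it. Of all tested genes, 15.8% were higher with Exosc10 at an unadjusted p under 0.05. The exact two-sided permutation test gave p = 0.0571. The exact tests on all 8 libraries were 3, with that of the read ratio, and were not adjusted for that number.

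**Figure D1:**
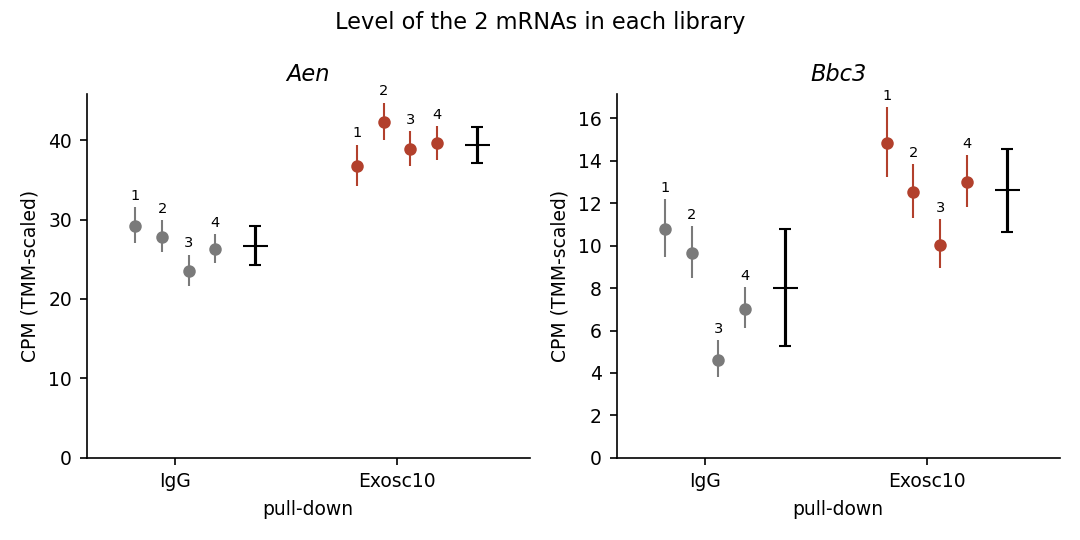
TMM-scaled CPM (vertical axis, from 0) of Aen and Bbc3 in the 4 IgG and 4 Exosc10 libraries, numbered as in the labels, with bars on each point for the 95% counting interval and a black mark for the group mean ± SD. For Aen the Exosc10 libraries sit between 36.8 and 42.3 and the IgG libraries between 23.6 and 29.2, and for Bbc3 Exosc10 library 3, at 10.1, lies below IgG library 1, at 10.8.

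The fitted fold of Bbc3 was thus no smaller than that of Aen, while its libraries were spread more widely. Aen varied little within a group, with a coefficient of variation of 5.81% in the Exosc10 and 9.04% in the IgG libraries. The counting error of a single library ran from 2.72% to 4.18% for Aen. Bbc3 varied by 15.6% and 34.3%, which was more than the counting error of its reads, 4.74% to 9.45%. The lowest count was that of IgG library 3, whose 112 reads have an exact 95% Poisson interval of 92.2 to 135. Intervals of this kind cover counting error only, since reads without molecular identifiers are not independent molecules.

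Genes of like abundance put these spreads in context. Aen, at a mean of 33.1 CPM, belonged to the sixth decile of tested genes, counted from the scarcest, in which the median coefficient of variation was 16.7% with Exosc10 and 19.0% with IgG. In the IgG group 88.8% of the genes of that decile varied more than Aen. Bbc3, at 10.3 CPM, belonged to the fourth decile, with medians of 20.3% and 24.8%, and 23.7% of its genes varied more than Bbc3 in the IgG group. Aen was therefore among the steadier genes of its range, and Bbc3 among the more variable ones of its own in the mock pull-down.

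Many tested genes differed more between the pull-downs than Aen or Bbc3 did. By log2 fold change Aen ranked 2312 and Bbc3 1758 of 16716 tested genes, so 13.8% and 10.5% of genes had a larger one. In the decile of Aen 151 of 1671 genes (9.04%) were called higher, the median log2 fold change of all its genes was 0.02, and 217 genes lay above Aen. Of the 151 called genes only 3 had a smaller fold change than Aen, and their median was 0.84. In the decile of Bbc3 77 of 1672 genes (4.61%) were called higher, the median of all its genes was -0.09, and 144 genes lay above Bbc3. The smallest log2 fold change called higher there was 0.65, at the same size as that of Bbc3, and the median of the called genes was 0.96. Many genes of like abundance thus had larger fold changes than either mRNA, with or without a call.

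**Figure D2:**
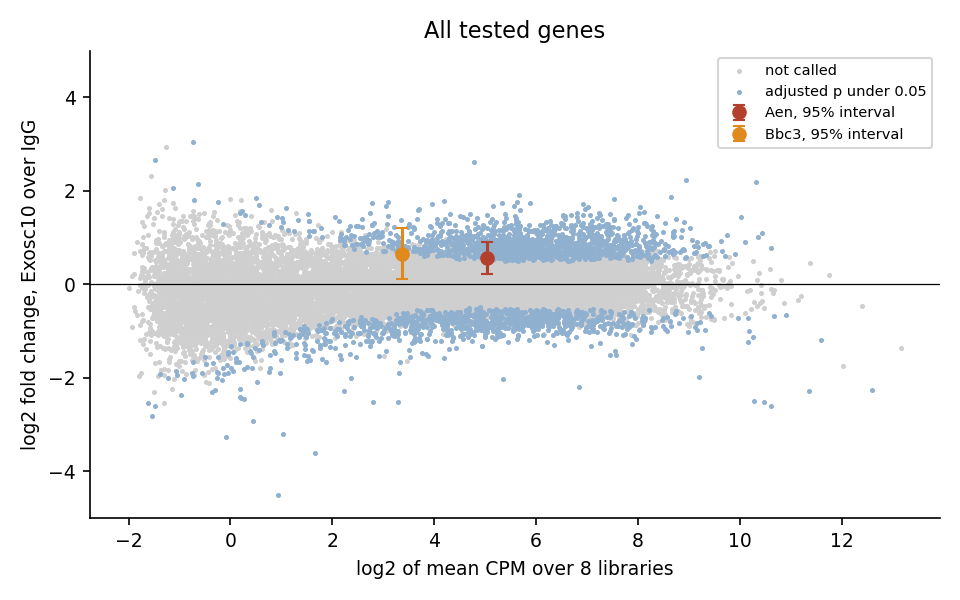
Log2 fold change of Exosc10 over IgG (vertical axis) against log2 of the mean CPM over 8 libraries (horizontal axis) for the 16716 tested genes, with called genes in blue and others in grey. Aen, at 0.56, and Bbc3, at 0.65, are drawn with 95% confidence intervals and lie at the lower edge of the called genes above 0.

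A ratio of Aen to Bbc3 reads within a library does not depend on how libraries are scaled, and it asks whether the 2 mRNAs differed in their response to the antibody. Lengths of the 2 mRNAs were not used, so the ratio is one of reads and not of molecules. There were 2.48, 3.38, 3.87 and 3.04 Aen reads per Bbc3 read in the Exosc10 libraries 1 to 4, and 2.71, 2.88, 5.10 and 3.73 in the IgG libraries 1 to 4. The groups overlapped, and IgG library 3 was highest. The log2 ratio was 1.66 ± 0.27 with Exosc10 and 1.80 ± 0.41 with IgG (SD, n = 4 each), a difference of -0.15. An exact two-sided permutation test gave p = 0.571, and the interval of the difference, from the lowest to the highest of the 16 pairings (exact level 97.1%), ran from -1.04 to 0.51. A difference between the responses of the 2 mRNAs was not detectable, but the interval is wide and at its lower end passes the size of either fold change. Without IgG library 3 the difference turned to 0.03 (exact permutation p = 0.886).

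**Figure D3:**
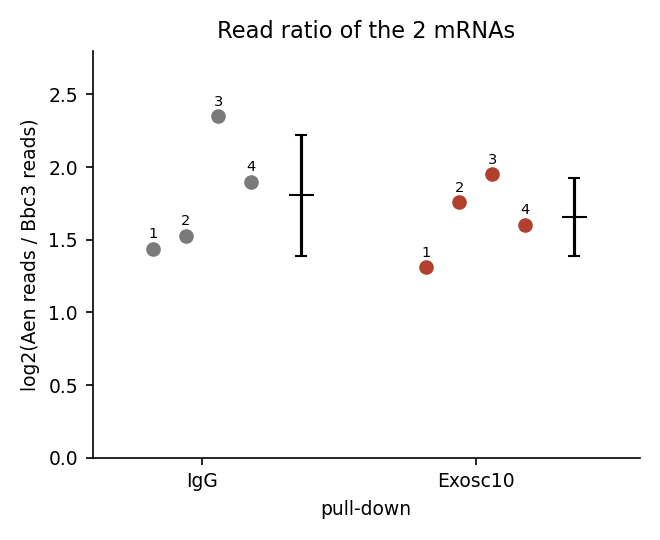
Log2 of Aen reads over Bbc3 reads (vertical axis, from 0) in each numbered IgG and Exosc10 library, with the mean ± SD of each group of 4 in black. The groups overlap, with means of 1.80 for IgG and 1.66 for Exosc10, and IgG library 3 is highest at 2.35.

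The call for Aen depended on which libraries were kept. It held without Exosc10 library 1 (edgeR adjusted p = 0.0181) and without IgG library 1 (0.0133). It also held without both libraries numbered 1 (edgeR adjusted p = 0.00282), a setting chosen after the data were seen. It was lost in the other 6 of 8 fits that left out a single library, with edgeR adjusted p-values of 0.104 without Exosc10 library 2, 0.0618 without Exosc10 library 3 and 0.0877 without Exosc10 library 4. They were 0.0575 without IgG library 2, 0.102 without IgG library 3 and 0.0914 without IgG library 4. Fewer genes were called in all in these 6 fits, 880 to 1370 against 2297 with all libraries. The 2 single-library fits that kept the call had 2772 and 4046. Before adjustment the edgeR p of Aen ran from 0.00499 to 0.0135 in the 6 fits, against 0.00301 with all libraries. Its log2 fold change stayed between 0.51 and 0.61 in the 8 fits. Scaling by the upper quartile gave 0.48 and an edgeR adjusted p of 0.0544, which also ended the call. Over 17 settings without a replicate block Aen was higher with Exosc10 in 17 and called in 10, at adjusted p-values from 0.000661 to 0.104.

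Bbc3 was higher with Exosc10 in 17 of the same 17 settings and called in 3, at adjusted p-values from 0.00287 to 0.241. The first was limma-voom with sample weights, at a log2 fold change of 0.83 (adjusted p = 0.00287). Another was edgeR without IgG library 1, at 0.83 (adjusted p = 0.0338). The last was edgeR without both libraries numbered 1, at 0.74 (adjusted p = 0.0320), and was chosen after the data were seen. These 3 settings called more genes in all, 6374, 4046 and 5463. A fit with the library numbers as a replicate block is not among the 17. It also called Bbc3 (edgeR adjusted p = 0.0141), with 4495 genes called in all. The labels do not say whether the numbers mark pairs. By deviations from the group means, each of the 8 libraries was closest, in the other group, to the one that shared its number. If the numbers do mark pairs, the main test ignored that pairing. IgG library 3 held the lowest value of both mRNAs. Without it the log2 fold change of Bbc3 was 0.47 with a confidence interval of -0.03 to 0.96 (edgeR adjusted p = 0.241), and without IgG library 4 the interval also reached below 0, to -0.03. Of all tested genes 17.6% had their lowest value in IgG library 3, so a minimum there was not particular to these mRNAs.

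**Figure D4:**
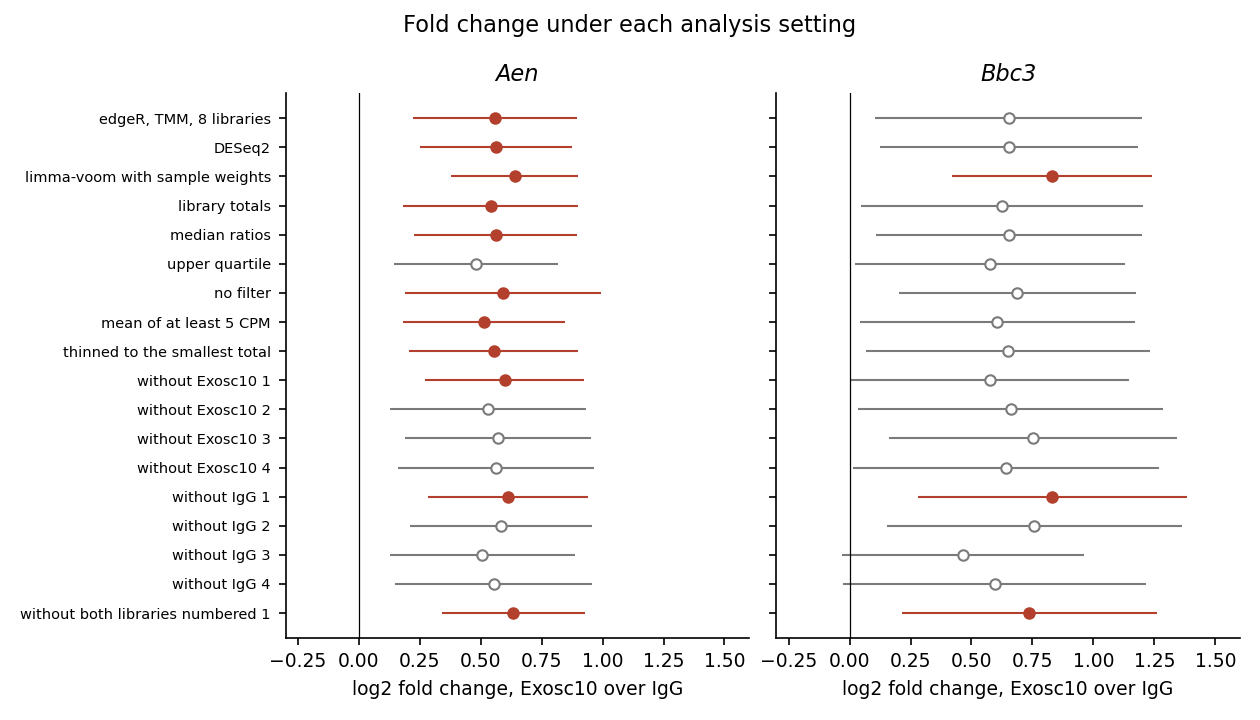
Log2 fold change of Exosc10 over IgG (horizontal axis) of Aen and Bbc3 in the analysis with all 8 libraries and in 17 other settings, with 95% confidence intervals. Filled red points have an adjusted p under 0.05 and open grey points do not. All points lie above 0, and the Bbc3 intervals without IgG library 3 and without IgG library 4 cross it.

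The genes whose log2 CPM followed each mRNA most closely over the 8 libraries were sought among the other 11710 genes with a mean of at least 5 CPM. For Aen these were ENSMUSG00000021294 (Pearson r = 0.995) and ENSMUSG00000057751 (r = 0.994), as a description with no test, since they are the extremes of a long ranking. Both were called higher with Exosc10 and by larger amounts than Aen. ENSMUSG00000021294 averaged 176 ± 16.1 CPM in Exosc10 and 76.0 ± 11.8 CPM in IgG libraries (SD, n = 4 each). The fitted log2 difference was 1.21 ± 0.17 (SE, edgeR adjusted p = 0.00152). ENSMUSG00000057751 averaged 76.3 ± 9.04 and 22.5 ± 5.31 CPM (SD, n = 4 each). The fitted log2 difference was 1.76 ± 0.20 (SE, edgeR adjusted p = 0.000606). The shape over libraries was shared, as the choice by r requires, while the size was not.

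For Bbc3 the closest were ENSMUSG00000058709 (r = 0.991) and ENSMUSG00000042961 (r = 0.989). Neither was called, at log2 fold changes of 0.65 ± 0.23 (SE, edgeR adjusted p = 0.0776) and 0.61 ± 0.25 (SE, edgeR adjusted p = 0.116). Their groups overlapped, as those of Bbc3 did, while those of the 2 genes like Aen were apart. In all 4 of these genes the lowest value was in IgG library 3. Genes chosen for a high r tend to share such traits, so these are not further observations. Aen and Bbc3 were less alike than these pairs, with r = 0.83 over the 8 libraries. Of 11710 genes compared, 1263 followed Aen more closely than Bbc3 did, and 924 followed Bbc3 more closely than Aen did. Part of every such r is the difference between the 2 pull-downs, which all points share. With the group means taken out, r was 0.969 and 0.949 for the 2 genes like Aen. It was 0.983 and 0.979 for those like Bbc3, and 0.710 for Aen with Bbc3.

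**Figure D5:**
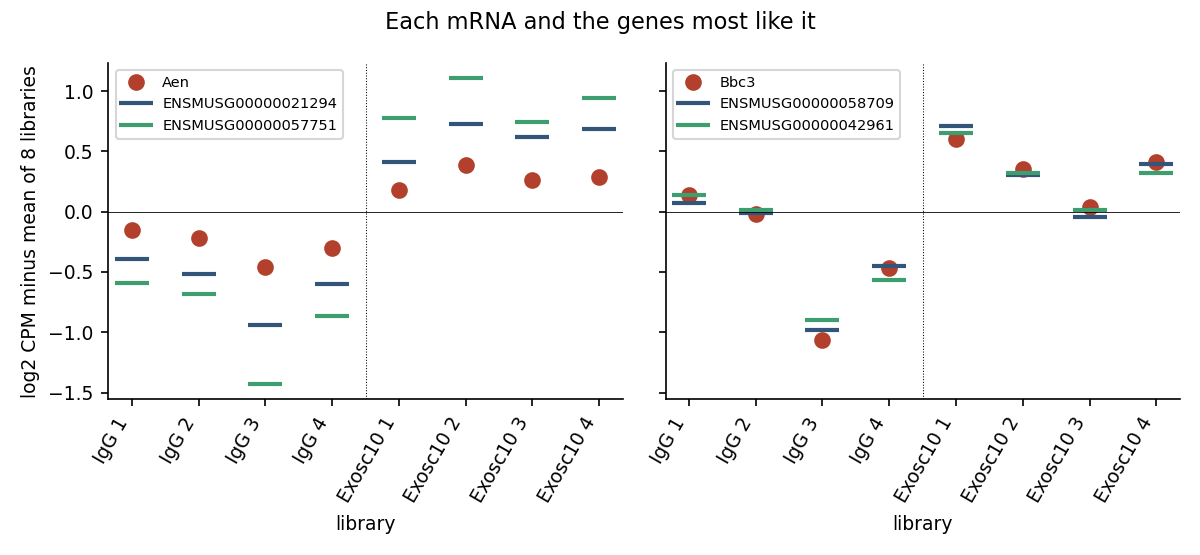
Log2 CPM minus its mean over 8 libraries (vertical axis) in each library (horizontal axis), for Aen and Bbc3 (circles) and the 2 genes most like each (bars). The genes most like Aen have wider differences between pull-downs than Aen, and those most like Bbc3 lie close to it, with the lowest values of all in IgG library 3.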

How the data were processed

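RIP-seq libraries from Exosc10 (n = 4) and IgG (n = 4) pull-downs were compared, with groups and numbers from the titles. The authors deposited raw read counts per Ensembl gene for each library. Per the submitters' processing notes, the build was mm10 and the tools included featureCounts 1.5.0-p1, the aligner STAR 2.5.2a, and bcl2fastq 2.17.1.14. The annotation release and strand setting are not given in the sources used here, so reads of overlapping or antisense genes could be assigned to either.

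The main test was that of edgeR 4.0.16 under R 4.3.3 (filterByExpr with minimum count 10 and minimum total 15, TMM, quasi-likelihood F-test, no covariate, Benjamini-Hochberg over all tested genes, threshold 0.05). SE is the fold change over the square root of F. Log2 CPM used a prior count of 2. Alternatives used DESeq2 1.42.0, limma 3.58.1, other scalings, filters, thinning, a replicate block and left-out libraries. On simulated data the test recovered 26% of 50 genes changed 1.5-fold and 60% of 50 changed 2-fold, with 0 false calls. The simulation gave 131 calls in all, against 2297 in the data, and the adjusted cut-off depends on that number. How often a change of the size fitted for Aen or Bbc3 would be missed here is thus not known. The RefSeq table (GRCm38.p6, 49997 genes) matched 0 of the 54838 IDs, so 14 gene lists by symbol were not run and identifiers are printed for at most 2 genes like each mRNA. The members and lists were chosen with earlier results of these data known. The named genes are Aen, Bbc3 and the 2 genes with the highest Pearson r to each.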

Additional observations from a re-analysis of the deposited data

How the results depend on the processing

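The log2 fold changes of Aen and Bbc3 were above 0 in every alternative run. Aen's was 0.48 with the upper quartile, which ended the call, and 0.51 to 0.61 without single libraries. Bbc3's was 0.83 with limma-voom, 0.70 with the replicate block, 0.74 without both libraries numbered 1 (chosen after seeing the data) and 0.47 to 0.83 without single libraries. The first 3 made it a call, as did leaving out IgG library 1. Genes called numbered 6374 with limma-voom, 4495 with the replicate block, 5463 without both libraries numbered 1 and 880 to 4046 without single libraries, against 2297, and the cause was not tested. The difference in the log2 read ratio ran from -0.270 to 0.0333 without single libraries and was above 0 only without IgG library 3, at 0.0333. Deviations of same-numbered libraries correlated at 0.34, 0.095, 0.34 and 0.22 for numbers 1 to 4, one of them under 0.1, so the numbers were not taken as pairs, although each of the 8 libraries was closest, in the other group, to the one that shared its number. With the block the edgeR adjusted p was 0.0110 for Aen and 0.0141 for Bbc3, and the exact sign-flip permutation p of the ratio was 0.375. The gene lists were not run. Thinning all libraries to the smallest total left the log2 fold changes at 0.55 for Aen (edgeR adjusted p = 0.0357) and 0.65 for Bbc3, with the same calls as without thinning.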

Other observations

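In 6 groups of 4 libraries, those of Aen CPM, Bbc3 CPM and their log2 read ratio in each pull-down, Dixon's test picked out no single library. The widest gap was 0.517 of its group's range, for Bbc3 in Exosc10 library 3. The highest Bbc3 value of all was in Exosc10 library 1, at 14.8 CPM, which held the lowest Aen value of its group, at 36.8 CPM.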
